A study of Mus musculus with 66 samples.

Results

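Dffa, Ctbp1, Gdf11 and Epdr1 are 4 genes, of the 30084 symbols in the count table. They were chosen by measured values of this series: each fell strongly in read count after one short hairpin RNA (shRNA): Dffa after Ash1l shRNA, Ctbp1 after Kmt2c shRNA, Gdf11 after Mbd5 shRNA and Epdr1 after Tbr1 shRNA. The fall of each gene in the knockdown that chose it is therefore given as a description, without a test. That choice was also limited to genes with calls, within a sex, in no more than 3 of the knockdowns, so a small number of calls elsewhere was partly built in. The results below give which other knockdowns moved each gene, in which direction and by how much. All 4 genes were among the 16145 that passed the filter on low counts.

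The data are polyadenylated-RNA sequencing of neurons cultured from wildtype mouse embryos of stage e16.5, in separate male and female cultures. Each culture received no virus, lentivirus with a nontargeting shRNA, or lentivirus with an shRNA against Tbr1, Ash1l, Kmt2c, Mbd5, Chd8, Dnmt3a, Kdm6b, Setd5 or Med13l. The virus-containing medium was taken off after 6 days in culture and RNA was collected at day 10. Each of the 22 groups of condition and sex held 3 libraries, and the labels speak of triplicate wells, so p-values measure the spread between libraries that may be technical replicates. No label names more than one hairpin per target, so an effect of losing the target and an effect of the hairpin sequence cannot be told apart.

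The 4 genes act in unrelated pathways. Dffa encodes the inhibitor and folding chaperone of the nuclease Dffb, which cuts nuclear DNA in apoptosis once it is freed from Dffa. Ctbp1 encodes a transcriptional corepressor that brings histone deacetylases and demethylases to DNA-binding repressors, and it also has a role at presynaptic terminals. Gdf11 encodes a secreted ligand of the TGF-beta family that signals through activin receptors to Smad2 and Smad3 and restrains neurogenesis in several neural tissues. Epdr1 encodes a lysosomal glycoprotein of the ependymin-related family that binds lipids. Among the proteins knocked down, Ash1l and Kmt2c are histone methyltransferases, Mbd5 has a methyl-CpG-binding domain, and Tbr1 is a T-box transcription factor of deep-layer cortical neurons.

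In mm10 coordinates (GENCODE annotation) Dffa lies at chr4:149104146-149120647 on the plus strand, and the other genes lie on the minus strand: Ctbp1 at chr5:33247723-33274994, Gdf11 at chr10:128882295-128891718 and Epdr1 at chr13:19591706-19619927. The only annotated gene overlapping any of them is the processed pseudogene Gm43850, on the opposite strand within an intron of Ctbp1. Over the 250 bases before the RefSeq start (GRCm38.p6), Gdf11 held 33 CpG dinucleotides, Ctbp1 31, Dffa 11 and Epdr1 4, where the median of 32851 promoters was 6. The sequences of Ctbp1 (all 250 bases, chr5:33275005-33275254) and Epdr1 (the 153 bases outside the annotated gene, chr13:19619928-19620080) are both written on the minus strand. The Ctbp1 window is CpG-dense. The Epdr1 window lay below the median, but 37.8% of promoters held fewer CpG, and its 153 printed bases hold 1 of its 4 CpG. Capitals mark CpG dinucleotides in Ctbp1 and, in Epdr1, the reverse complement of AGGTGTG, the T-box motif AGGTGTGA without its last base.
Ctbp1: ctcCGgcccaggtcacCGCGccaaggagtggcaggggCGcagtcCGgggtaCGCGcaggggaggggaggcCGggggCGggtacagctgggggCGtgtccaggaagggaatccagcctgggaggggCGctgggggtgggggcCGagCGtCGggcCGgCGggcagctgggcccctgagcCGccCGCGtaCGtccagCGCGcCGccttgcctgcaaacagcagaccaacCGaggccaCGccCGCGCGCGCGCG
Epdr1: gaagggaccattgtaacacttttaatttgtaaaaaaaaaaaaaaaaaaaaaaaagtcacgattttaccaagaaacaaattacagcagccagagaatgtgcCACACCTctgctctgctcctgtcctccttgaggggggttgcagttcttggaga
The T-box motif AGGTGTGA was searched on both strands and was in none of the 4 windows of 250 bases, while 1.12% of all promoters held it. The shorter AGGTGTG, which every AGGTGTGA contains, was in the Epdr1 window only, between 150 and 144 bases before the start, and in 5.10% of all promoters. A match to these letters is a description of the sequence and not a binding site.

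Library totals ranged from 13759741 to 66558546 counts, and the 4 genes had between 413 and 13898 counts in every library. Levels are in CPM, counts scaled to the TMM-adjusted library size, with no correction for gene length. Markers matched the label: the summed level of 9 neuronal markers was between 4453 and 7302 CPM and that of 8 astrocyte markers between 197 and 556 CPM. Of 6 microglial markers 3 passed the filter on low counts, and these 3 summed to between 0.374 and 2.90 CPM. In 3 libraries a gene went against the label. Among the male libraries labelled Setd5 shRNA, replicate 1 had Setd5 at 141 CPM, within the 133 to 149 CPM of the nontargeting male libraries. Among those labelled Kdm6b shRNA, replicate 1 had Kdm6b at 39.9 CPM, against 17.2 in each of the other 2, and Setd5 at 44.9 CPM. Kdm6b was at 23.1 CPM in the library labelled Setd5 male replicate 1, against 47.2 and 62.6 CPM in the other 2 of that label, so each of these 2 libraries had the low level that the label of the other names. As they were kept under their labels, the Setd5 and Kdm6b values below each hold 1 male library with the pattern of the other knockdown. The library labelled Setd5 shRNA female replicate 1 had 612 counts of the Y-linked gene Ddx3y, where other female libraries had at most 12 and male libraries at least 1690. Of Eif2s3y, also Y-linked, it had 24 counts, against at most 6 in other female and at least 1261 in male libraries. All 3 were kept, and the effects of Setd5 and Kdm6b shRNA on the 4 genes are given with and without them.

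**Figure D1:**
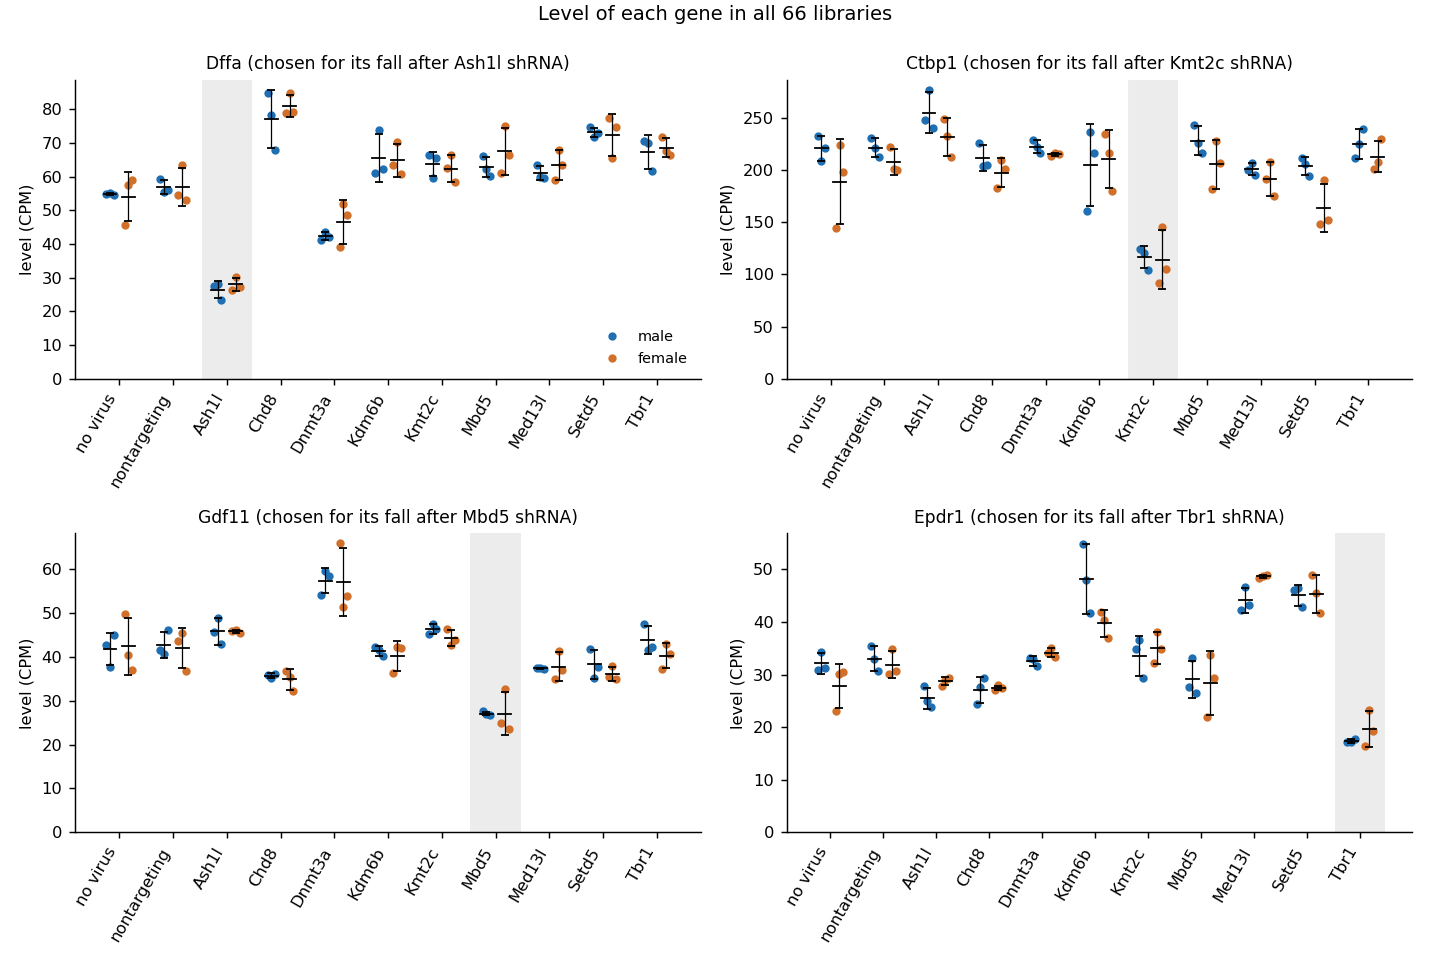
Level of Dffa, Ctbp1, Gdf11 and Epdr1 in CPM (linear axis from 0) in each library, by condition along the horizontal axis. Points are single libraries coloured by sex, horizontal lines are means and vertical lines the SD of 3 libraries, and the grey band marks the knockdown that chose the gene. Dffa also sits above its nontargeting libraries after Chd8 and Setd5 shRNA, and Epdr1 after Kdm6b, Med13l and Setd5 shRNA.

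Neither the virus nor the sex of the culture moved the 4 genes past the threshold. In the comparison of nontargeting with no virus libraries (mean over the sexes, 6 against 6 libraries) the log2 difference was 0.07 for Dffa, 0.07 for Ctbp1, 0.01 for Gdf11 and 0.11 for Epdr1. Their unadjusted edgeR p-values were 0.375, 0.451, 0.895 and 0.184. Over all genes 0% passed an edgeR adjusted p of 0.05 there, 113 genes had an unadjusted p under 0.05, and DESeq2 called 1 gene, none of the 4. Male and female libraries also did not differ past the threshold for any of the 4 genes, either without virus or with nontargeting shRNA, where 0.0434% of genes passed in each. In every comparison below, an effect is the shRNA minus nontargeting difference in log2 CPM, averaged over the sexes and tested with edgeR's quasi-likelihood test. Adjusted p-values follow Benjamini-Hochberg within a comparison, over all 16145 genes. The 9 comparisons share the 6 nontargeting libraries, so their values are set side by side and not correlated. The share of all genes whose libraries did not overlap the controls was not counted. A lack of overlap is therefore given as a description only.

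Dffa fell to near 50% of control after Ash1l shRNA, and it was also lower after Dnmt3a shRNA and higher after Chd8 and Setd5 shRNA. It had 59.4, 55.3 and 56.1 CPM in the male and 54.5, 63.4 and 52.9 CPM in the female nontargeting libraries. After Ash1l shRNA it had 27.5, 28.1 and 23.5 CPM in males and 26.5, 30.3 and 27.2 CPM in females. All 6 Ash1l libraries lay below all 6 control libraries and close to each other. The means were 46.3% of control in males (26.4 ± 2.54 against 56.9 ± 2.17 CPM, SD, n = 3) and 49.2% in females (28.0 ± 2.01 against 56.9 ± 5.64 CPM, SD, n = 3), a pooled log2 difference of -1.07 (SE 0.074). Ash1l itself, the target, was at 24.8% of control in males and 27.0% in females in these libraries. By size of change Dffa ranked 77 among the 564 genes lower after Ash1l shRNA (3.49% of genes tested), so many genes fell further.

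The other 8 knockdowns moved Dffa in both directions. After Dnmt3a shRNA, which targets a DNA methyltransferase, Dffa had 41.3, 43.7 and 42.2 CPM in males and 39.1, 51.9 and 48.6 CPM in females. Every one of these libraries was below every nontargeting library of its sex, and the highest, 51.9 CPM, was just below the lowest control, 52.9 CPM. The log2 difference was -0.36 (SE 0.0734, edgeR adjusted p = 0.00364), in a comparison where 1.40% of genes passed. After Chd8 shRNA, against a chromatin remodeller, Dffa rose to 84.9, 78.3 and 67.9 CPM in males and 79.0, 84.8 and 79.0 CPM in females. These 6 libraries were all above the controls, by 0.47 on the log2 scale (edgeR adjusted p = 1.8e-06), in a comparison where 22.3% of genes passed. After Setd5 shRNA, against a SET-domain protein, it rose to 74.6, 71.8 and 72.9 CPM in the male and 77.3, 65.4 and 74.6 CPM in the female libraries so labelled. Again no library overlapped the controls, and the log2 difference was 0.35 (edgeR adjusted p = 0.00141, where 5.30% of genes passed). Without the libraries labelled Setd5 and Kdm6b male replicate 1 this difference was 0.35 (edgeR adjusted p = 0.00164). It was 0.33 with only the library labelled Setd5 female replicate 1 left out (edgeR adjusted p = 0.00776).

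Dffa thus passed in 3 of the 8 other knockdowns, 1 lower and 2 higher. In the remaining 5 its log2 difference was above 0 but missed the threshold: 0.25 after Tbr1 (edgeR adjusted p = 0.0655), 0.20 after Kdm6b, 0.19 after Mbd5, 0.15 after Kmt2c and 0.13 after Med13l shRNA. After Tbr1 shRNA all 6 libraries, between 61.6 and 71.8 CPM, were above the nontargeting libraries of their sex, and 1.33% of all genes passed there. The Tbr1 value also passed by DESeq2 (adjusted p = 0.0132), and without no virus female replicate 1 (edgeR adjusted p = 0.0473), nontargeting female replicate 2 (edgeR adjusted p = 0.0368) or Dnmt3a female replicate 1 (edgeR adjusted p = 0.0476). The Kdm6b value was 0.22 without the 2 male libraries that go against their labels (edgeR adjusted p = 0.178). With the no virus libraries as control 5 of the 8 passed, Tbr1 (edgeR adjusted p = 0.00900) and Med13l (edgeR adjusted p = 0.0496) being added. With the replicate number as a block 5 of the 8 passed, Tbr1 (edgeR adjusted p = 0.00673) and Kdm6b (edgeR adjusted p = 0.0442) being added. Among all genes the block also gave more calls, with 719 lower after Tbr1 shRNA against 174 without it. The fit without the block leaves out the pairing of same-numbered libraries described below. Fitted on only the libraries compared, 1 of the 8 passed: Dnmt3a (edgeR adjusted p = 0.113) and Setd5 (edgeR adjusted p = 0.0992) were lost. In size the fall after Ash1l shRNA stood 0.71 log2 units below the next lowest value, that after Dnmt3a shRNA.

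Ctbp1 passed in no knockdown other than the one that chose it, except after Setd5 shRNA when the replicate number was a block. It had 231, 221 and 213 CPM in male and 222, 201 and 200 CPM in female nontargeting libraries. After Kmt2c shRNA it had 124, 121 and 105 CPM in males and 91.5, 146 and 105 CPM in females. The 6 Kmt2c libraries were all below the 6 controls, and female replicate 2 stood apart as the highest. The means were 52.5% of control in males (117 ± 10.5 against 222 ± 9.16 CPM, SD, n = 3) and 54.97% in females (114 ± 28.3 against 208 ± 12.5 CPM, SD, n = 3), with a pooled log2 difference of -0.90 (SE 0.0942). Kmt2c was at 48.3% of control in males and 39.9% in females. By size Ctbp1 ranked 14 among the 96 genes lower after Kmt2c shRNA (0.595% of genes tested).

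In the other 8 knockdowns every log2 difference of Ctbp1 was within 0.25 of 0, and 0 of 8 passed edgeR's adjusted threshold. The shares of genes that passed in those comparisons ran from 0.663% (Mbd5) to 24.1% (Med13l). DESeq2 also called 0 of 8, and 1 of 8 had an unadjusted edgeR p under 0.05. That one was Setd5 shRNA: 212, 206 and 195 CPM in the male and 149, 191 and 152 CPM in the female libraries so labelled. All of these lay below the nontargeting libraries of their sex, with female replicates 1 and 3 lowest, in a comparison where 5.30% of genes passed. The log2 difference was -0.23 (95% interval -0.41 to -0.05, edgeR adjusted p = 0.160), and with the replicate number as a block it passed (edgeR adjusted p = 0.0413). With Setd5 female replicate 1 left out it was -0.20 (edgeR adjusted p = 0.383), and without the 2 male libraries that go against their labels -0.24 (edgeR adjusted p = 0.117). After Ash1l shRNA the value was 0.18 (95% interval -0.0020 to 0.36, edgeR adjusted p = 0.308), with all 3 male libraries above the controls and the female ones overlapping. After Mbd5, Dnmt3a and Tbr1 shRNA the differences were 0.02, 0.03 and 0.03, and after Med13l, Chd8 and Kdm6b shRNA -0.13, -0.07 and -0.05. Without the 2 male libraries that go against their labels the Kdm6b value was 0.03 (edgeR adjusted p = 0.970). The 95% intervals of these 6 values ran at most from -0.31 to 0.21, so changes of that size could be missed. One low value stood outside the groups' pattern: no virus female replicate 1 had 145 CPM, next to 224 and 198 CPM in the other 2 libraries of that group. The fall after Kmt2c shRNA lay 0.67 log2 units below the next lowest value.

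Gdf11 was lower after Mbd5 shRNA and Chd8 shRNA and higher after Dnmt3a shRNA. The nontargeting libraries had 41.6, 40.6 and 46.1 CPM in males and 43.6, 45.4 and 36.7 CPM in females. After Mbd5 shRNA the level was 27.5, 27.0 and 26.7 CPM in males and 24.8, 32.7 and 23.6 CPM in females. All were below the controls, the male libraries almost equal and female replicate 2 highest. Mbd5 itself was also highest in female replicate 2, at 21.0 CPM against 10.1 and 12.4 CPM in the other female libraries. Nontargeting female replicate 2 likewise had the most Gdf11 of its group, and Mbd5 ranged from 34.9 to 57.5 CPM in that group. In the male Mbd5 shRNA libraries Mbd5 ranged only from 16.6 to 17.2 CPM. A link between the levels of Mbd5 and Gdf11 across replicates was not tested. Gdf11 means were 63.3% of control in males (27.1 ± 0.427 against 42.7 ± 2.93 CPM, SD, n = 3) and 64.5% in females (27.0 ± 4.92 against 41.9 ± 4.59 CPM, SD, n = 3), a pooled log2 difference of -0.65 (SE 0.0751). This was the smallest of the 4 falls, though Mbd5 was at 36.8% of control in males and 32.9% in females. Gdf11 ranked 31 by size among the 91 genes lower after Mbd5 shRNA (0.564% of genes tested).

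After Dnmt3a shRNA Gdf11 rose to 54.2, 59.5 and 58.3 CPM in males and 65.9, 51.3 and 53.9 CPM in females. No library overlapped the controls, the log2 difference was 0.43 (SE 0.0746, edgeR adjusted p = 0.000309), and 1.40% of genes passed in that comparison. Dffa, which was lower in the same Dnmt3a libraries, thus moved the opposite way. After Chd8 shRNA Gdf11 had 35.8, 35.1 and 36.1 CPM in males and 36.8, 35.4 and 32.2 CPM in females. The male libraries were below their controls, while in females the lowest control, 36.7 CPM, was just under the highest Chd8 library. The log2 difference was -0.26 (edgeR adjusted p = 0.00683, where 22.3% of genes passed). Gdf11 thus passed in 2 of 8 other knockdowns, 1 in each direction. Fitted on only the libraries compared, 1 of 8 passed, and Dnmt3a was lost (edgeR adjusted p = 0.0717). The difference after Setd5 shRNA missed the threshold (-0.19, edgeR adjusted p = 0.149). It was -0.22 without the 2 male libraries that go against their labels (edgeR adjusted p = 0.0871) and -0.18 without Setd5 female replicate 1 (edgeR adjusted p = 0.288). That after Med13l shRNA missed it too (-0.17, edgeR adjusted p = 0.0844), but passed with the replicate block (edgeR adjusted p = 0.0453) and without nontargeting female replicate 3 (edgeR adjusted p = 0.0453). The others were 0.11 after Ash1l, 0.10 after Kmt2c, -0.06 after Kdm6b (-0.06 also without the 2 male libraries) and -0.01 after Tbr1 shRNA. The value after Mbd5 shRNA lay 0.38 log2 units below that after Chd8 shRNA, the narrowest such gap of the 4 genes.

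Epdr1 was higher after Med13l, Setd5 and Kdm6b shRNA and lower after Tbr1 and Chd8 shRNA. Nontargeting libraries had 35.4, 33.0 and 30.6 CPM in males and 30.1, 34.8 and 30.6 CPM in females. After Tbr1 shRNA the level was 17.2, 17.1 and 17.8 CPM in males and 16.48, 23.3 and 19.3 CPM in females. The groups did not overlap, and female replicate 2, the highest, was also the library with most Tbr1 (34.3 CPM, against 15.4 and 15.8 CPM in the other female libraries). Nontargeting female replicate 2 likewise had the most Epdr1 of its group, and Tbr1 ranged from 47.4 to 70.2 CPM in that group. In the male Tbr1 shRNA libraries Tbr1 ranged from 15.3 to 23.4 CPM, while Epdr1 stayed between 17.1 and 17.8 CPM. A link between the levels of Tbr1 and Epdr1 across replicates was not tested. Epdr1 means were 52.6% of control in males (17.4 ± 0.387 against 33.0 ± 2.39 CPM, SD, n = 3) and 61.9% in females (19.7 ± 3.44 against 31.8 ± 2.59 CPM, SD, n = 3), a pooled log2 difference of -0.81 (SE 0.0861). Tbr1 was at 35.9% and 39.5% of control. Epdr1 ranked 31 by size among the 174 genes lower after Tbr1 shRNA (1.08% of genes tested).

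After Med13l shRNA, against a subunit of the Mediator kinase module, Epdr1 had 42.3, 46.7 and 43.3 CPM in males and 48.4, 48.8 and 48.9 CPM in females. All 6 were above the controls, by 0.51 on the log2 scale (SE 0.0852, edgeR adjusted p = 7.5e-06), where 24.1% of genes passed. The libraries labelled Setd5 shRNA had 46.0, 46.4 and 42.8 CPM in males and 48.9, 45.5 and 41.7 CPM in females. They too were all above the controls (log2 difference 0.48, edgeR adjusted p = 0.000216, where 5.30% of genes passed). With Setd5 female replicate 1 left out the value was 0.45 (edgeR adjusted p = 0.00139). The libraries labelled Kdm6b shRNA, against a histone demethylase, had 54.9, 48.0 and 41.6 CPM in males and 41.9, 40.4 and 36.9 CPM in females. The library labelled male replicate 1 was the highest of all 66, and every one was above the controls of its sex. The log2 difference was 0.43 (edgeR adjusted p = 0.00454, where 0.966% of genes passed). Without the 2 male libraries that go against their labels it was 0.38 for Kdm6b (edgeR adjusted p = 0.0129) and 0.47 for Setd5 (edgeR adjusted p = 0.000173). The 95% intervals of the 3 rises overlapped, at 0.35 to 0.68 for Med13l, 0.31 to 0.65 for Setd5 and 0.27 to 0.60 for Kdm6b. The differences between them were not tested.

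After Chd8 shRNA Epdr1 had 24.4, 27.7 and 29.3 CPM in males and 27.1, 27.9 and 27.4 CPM in females, all below the controls of their sex. The log2 difference was -0.25 (edgeR adjusted p = 0.0282, where 22.3% of genes passed). This call depended on single libraries. It was lost with no filter on low counts (edgeR adjusted p = 0.0728), and without nontargeting male replicate 1 (edgeR adjusted p = 0.0882), nontargeting female replicate 2 (edgeR adjusted p = 0.0971), Chd8 male replicate 1 (edgeR adjusted p = 0.0921) or Chd8 female replicate 1 (edgeR adjusted p = 0.0673). With the no virus libraries as control it was -0.13 (edgeR adjusted p = 0.280). The value after Ash1l shRNA was nearly the same, with 27.8, 24.9 and 23.8 CPM in males and 27.9, 29.0 and 29.3 CPM in females. It missed the threshold (log2 difference -0.26, edgeR adjusted p = 0.0548) and passed with the replicate block (edgeR adjusted p = 0.0104), by DESeq2 (adjusted p = 0.0207) and when any of 19 single libraries was left out, Ash1l male replicate 1 (edgeR adjusted p = 0.0419) being the only one of the libraries compared. Epdr1 thus passed in 4 of 8 other knockdowns, 1 lower and 3 higher, and in 2 of 8 when only the libraries compared were fitted, where Kdm6b (edgeR adjusted p = 0.241) and Setd5 (edgeR adjusted p = 0.0568) were lost. The values after Mbd5, Kmt2c and Dnmt3a shRNA were -0.17, 0.08 and 0.04. The fall after Tbr1 shRNA was 0.55 log2 units below the next lowest, that after Ash1l shRNA.

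**Figure D2:**
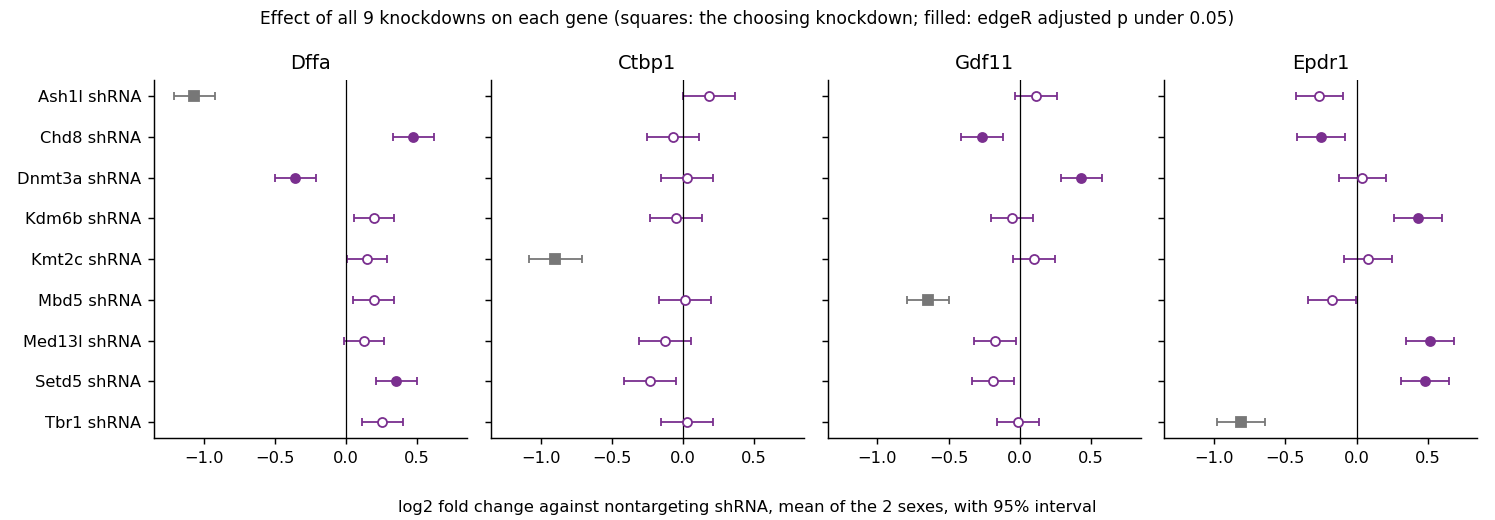
Pooled log2 difference from nontargeting shRNA (horizontal axis, with 95% interval) of each gene in all 9 knockdowns (vertical axis). Grey squares are the choosing knockdowns, shown as a description, and filled circles passed an edgeR adjusted p of 0.05: 3 of 8 for Dffa, 0 for Ctbp1, 2 for Gdf11 and 4 for Epdr1.

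The background shows how often a gene lower in one knockdown also passed elsewhere. Of the 564 genes lower after Ash1l shRNA, 201 (35.6%) passed in no other knockdown, 216 in 1, 115 in 2, 28 in 3 and 4 in at least 4, so Dffa with 3 was among the less specific. Of 96 genes lower after Kmt2c shRNA, 17 (17.7%), Ctbp1 among them, passed in no other. Of 91 genes lower after Mbd5 shRNA, 31 (34.1%) passed in no other, and Gdf11 with 2 was one of 16 such genes. Of 174 genes lower after Tbr1 shRNA, 39 (22.4%) passed in no other and 6, Epdr1 among them, in at least 4. Of the 4 genes Ctbp1 alone had 0 other calls in this fit, which its choice favoured, and with the replicate number as a block it had 1. With the block the lower genes numbered 1393, 326, 382 and 719 after Ash1l, Kmt2c, Mbd5 and Tbr1 shRNA, and 16.1%, 8.59%, 9.69% and 9.60% of them passed in no other knockdown. Leaving out 1 library moved the counts of lower genes by over 1.5 times after Kmt2c (48 without Kmt2c female replicate 1), Mbd5 (42 without Mbd5 female replicate 1) and Tbr1 shRNA (92 without Tbr1 male replicate 2). Without the 2 male libraries that go against their labels the shares that passed in no other were 31.7%, 13.7%, 29.2% and 18.2%, and without Setd5 female replicate 1 they were 35.1%, 17.7%, 33.0% and 21.2%. The number of other knockdowns that passed put Epdr1 above Dffa in this fit (4 against 3). It was 5 for each with the block, and with the no virus libraries as control it was 3 for Epdr1 and 5 for Dffa. By size each of the 4 had its lowest value of the 9 in the knockdown that chose it, which the choice favoured. The same held for 406 of the 564, 62 of the 96, 68 of the 91 and 119 of the 174 genes lower there. Both counts depend on how many genes each of the other comparisons called, which differed widely.

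**Figure D3:**
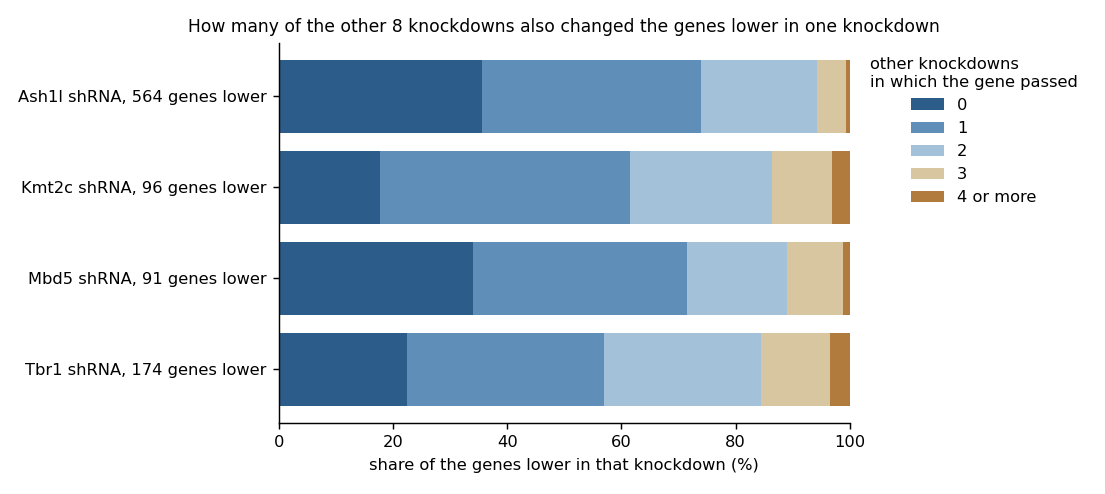
Share (%) of the genes lower after Ash1l, Kmt2c, Mbd5 or Tbr1 shRNA that passed an edgeR adjusted p of 0.05 in 0, 1, 2, 3, or 4 or more of the other 8 knockdowns. Between 17.7% (Kmt2c) and 35.6% (Ash1l) passed in no other knockdown.

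Other genes passed, in this fit, only in the knockdown where they were lower. After Ash1l shRNA the leading ones were Snx30, a sorting nexin of endosomes (log2 difference -1.55), Fam168a (-1.34) and the aminopeptidase Npepps (-1.09), with edgeR adjusted p-values of 9.43e-15, 1.93e-12 and 3.61e-11. After Kmt2c shRNA they were the kinase gene Aatk (-0.69), the nuclear import receptor Kpnb1 (-0.51) and Erlin2 of the endoplasmic reticulum (-0.28), at edgeR adjusted p-values of 0.000645, 0.00117 and 0.00738. After Mbd5 shRNA they were Rtl8c (-0.61), the clustered protocadherin Pcdhac2 (-0.90) and the aldehyde reductase Akr1a1 (-0.57), at edgeR adjusted p-values of 0.000164, 0.000845 and 0.00121. Rtl8c and Pcdhac2 share sequence with close relatives, so their counts are uncertain. With only the libraries compared in the fit Rtl8c (edgeR adjusted p = 0.0512), Pcdhac2 (edgeR adjusted p = 0.0946) and Erlin2 (edgeR adjusted p = 0.0773) missed the threshold. Erlin2 also missed it with no filter on low counts (edgeR adjusted p = 0.0543) and without Kmt2c female replicate 1 (edgeR adjusted p = 0.0541). After Tbr1 shRNA they were Surf2 (-0.63), the polarity gene Pard6g (-0.75) and Spast, which encodes a microtubule-severing enzyme (-0.43), at edgeR adjusted p-values of 7.57e-05, 0.00016 and 0.000314.

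None of the named partners of the 4 proteins passed the test in the choosing knockdown. After Ash1l shRNA Dffb, the nuclease that Dffa holds in check, had 6.09 ± 0.536 CPM against 6.68 ± 0.74 CPM in controls (SD, n = 6; log2 difference -0.13, edgeR adjusted p = 0.664). Of 36 tested genes of apoptotic DNA fragmentation 3 passed: Apaf1, the apoptosome scaffold, fell by 0.69 (edgeR adjusted p = 1.94e-05), Bid, a pro-apoptotic BCL2-family gene, fell by 0.52 (edgeR adjusted p = 0.00122), and Casp9, the caspase activated on that scaffold, rose by 0.47 (edgeR adjusted p = 0.00429). In that comparison 6.16% of all genes passed, and the median difference was 0.01 for the list and 0.01 for all genes. The list had 6 higher and 4 lower genes after Chd8 shRNA, where 22.3% of all genes passed, and 8 higher and 5 lower after Med13l shRNA, where 24.1% did.

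Ctbp2, the paralogue of Ctbp1, had 24.1 ± 2.45 CPM after Kmt2c shRNA and 25.2 ± 4.02 CPM in controls (SD, n = 6; log2 difference -0.06). Kdm1a, the histone demethylase of the corepressor complex, had a difference of 0.06. None of 29 tested genes of the CtBP corepressor list passed after Kmt2c shRNA by edgeR or by DESeq2, 3 had an unadjusted p under 0.05, and 0.694% of all genes passed. The list's median was -0.06 and that of all genes -0.01. The same list had 2 higher and 7 lower genes after Chd8 shRNA, where 22.3% of all genes passed, and 6 higher and 6 lower after Med13l shRNA, where 24.1% did.

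After Mbd5 shRNA the nearest relative of Gdf11, Mstn, had a log2 difference of 0.30 (SE 0.259), at 2.91 ± 0.525 against 2.36 ± 0.772 CPM (SD, n = 6). The receptor gene Acvr2b had 0.53 (SE 0.234, unadjusted p = 0.0278, edgeR adjusted p = 0.576), and Smad2, the effector, -0.13. None of 30 tested genes of GDF11 signalling passed by edgeR or DESeq2, 4 had an unadjusted p under 0.05, and 0.663% of all genes passed. The median was 0.03 for the list and 0 for all genes.

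For Epdr1 the list held 33 tested genes of lysosomes and ganglioside breakdown. After Tbr1 shRNA 2 of them passed, both higher: Sumf1, the activator of lysosomal sulfatases (0.48, edgeR adjusted p = 0.0152), and Npc2, a cholesterol carrier (0.31, edgeR adjusted p = 0.0256), where 1.33% of all genes passed. Both calls were lost with only the libraries compared in the fit (edgeR adjusted p = 0.146 for Sumf1 and 0.0539 for Npc2). Sumf1 also lost it with the no virus libraries as control (0.31, edgeR adjusted p = 0.209). Npc2 lost it with no filter on low counts (edgeR adjusted p = 0.0611). Leaving out nontargeting female replicate 3, Tbr1 male replicate 1 or 2, or Tbr1 female replicate 2 ended the call of Sumf1 (edgeR adjusted p from 0.0640 to 0.0768). That of Npc2 ended without any 1 of nontargeting male replicates 1 to 3, nontargeting female replicates 1 and 2, Tbr1 male replicate 2 and Tbr1 female replicates 1 and 3 (edgeR adjusted p from 0.0564 to 0.103). Sumf1 also passed in 4 and Npc2 in 3 of the other knockdowns. DESeq2 called 3 higher and 1 lower. Psap, the precursor of the saposins, and Ctsd, the protease cathepsin D, had differences of -0.03 and 0.14. The median was 0.05 for the list and 0.00 for all genes. After Med13l shRNA 4 genes of the list were higher and 3 lower, where 24.1% of all genes passed.

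**Figure D4:**
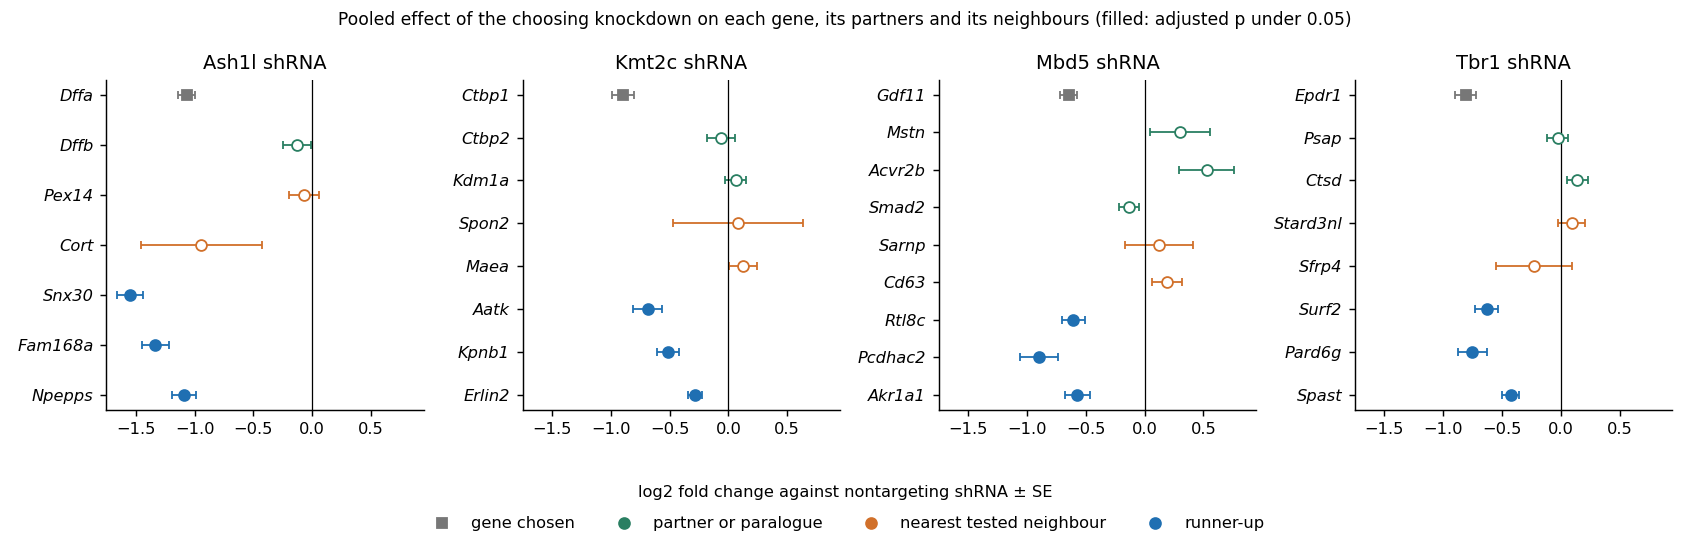
Pooled log2 difference from nontargeting shRNA ± SE in the choosing knockdown for the chosen gene (grey square), the partners or paralogue named in the text, its nearest tested neighbours and the 3 leading genes lower in that knockdown alone. Filled points passed an edgeR adjusted p of 0.05, and no partner or neighbour shown did.

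The genes next to the 4 on the chromosome did not move past the threshold either. Over all genes 6.16% passed after Ash1l, 0.694% after Kmt2c, 0.663% after Mbd5 and 1.33% after Tbr1 shRNA, so the lack of a call among so few genes says little. Pex14, 4.3 kb from Dffa, had a difference of -0.07 after Ash1l shRNA. On the other side Cort, 4.4 kb away, had a mean of 19.0 against 35.4 CPM (n = 6 each; log2 difference -0.94, SE 0.514, edgeR adjusted p = 0.349); it passed with the replicate block (edgeR adjusted p = 0.0146). Spon2 and Maea, 29.3 and 60.5 kb from Ctbp1, had 0.08 and 0.12 after Kmt2c shRNA. Sarnp and Cd63, 4.7 and 9.3 kb from Gdf11, had 0.13 and 0.19 after Mbd5 shRNA. Stard3nl and Sfrp4, 195.9 and 3.2 kb from Epdr1, had 0.09 and -0.23 after Tbr1 shRNA, with Sfrp4 and Spon2 near the limit of detection at under 1 CPM.

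Across the 22 group means of log2 CPM, centred within each sex, the genes whose pattern was most like Dffa were Txn2 (Pearson r = 0.962), Dab2ip (0.922) and Hs2st1 (0.917). For Ctbp1 they were Aatk (0.926), Prc1 (0.847) and Asb1 (0.835), for Gdf11 Rtl8c (0.859), Gpatch2 (0.812) and Chd9 (0.810), and among those most like Epdr1 were Adam9 (0.907) and Spast (0.871). These are among the highest of 16145 values, over groups that include the knockdown that chose the gene, and they describe likeness only. Txn2, the mitochondrial thioredoxin, fell by 0.94 after Ash1l shRNA and passed in 0 of the other 8.

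The summed level of the 8 astrocyte markers was lower in 2 of the choosing knockdowns. It was 323 to 488 CPM in the nontargeting libraries, 236 to 301 CPM after Kmt2c shRNA and 197 to 279 CPM after Tbr1 shRNA, with no overlap. By edgeR 1 of 8 markers, the glutamate transporter Slc1a2, was lower in each, where 0.595% (Kmt2c) and 1.08% (Tbr1) of all genes were lower. Slc1a2, at a median of 213 CPM, made up most of the sum. The median log2 difference of the 8 markers was -0.82 after Kmt2c shRNA but 0.19 after Tbr1 shRNA, against -0.01 and 0.00 for all genes, so after Tbr1 shRNA the sum and the median differed in sign. The sums after Ash1l (313 to 556 CPM) and Mbd5 shRNA (307 to 446 CPM) overlapped the controls. After Med13l shRNA the sum was 257 to 399 CPM, and after Chd8 shRNA 230 to 342 CPM, with 2 of 8 markers lower in each. Of the 16145 genes tested 1990 were lower after Med13l and 2016 after Chd8 shRNA, so 2 of 8 says little about these markers. The part of these cells in the falls of Ctbp1 and Epdr1 was not tested. In bulk libraries fewer cells of a type and less RNA per cell cannot be told apart.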

How the data were processed

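Per the submitters' processing notes reads were aligned with STAR and counted with featureCounts on mm10, and versions and settings are not given in the sources used here. The authors deposited 1 table of whole-number read counts per gene, not normalized, with 48716 rows. Rows without a symbol (18483, holding 0.690% to 1.41% of a library's counts) were left out and 149 repeated symbols were summed. The table had 72 library columns, 6 of them for no sample here, which were not used. The columns named for a luciferase hairpin were matched to the group the labels call nontargeting. Counts from 1 to 20 were mostly even (26.7% odd), so halved counts were tried as well.

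Counts were fitted in R 4.3.3 with edgeR 4.0.16 (filterByExpr, TMM, robust quasi-likelihood test), one mean per group over 66 libraries, adjusted by Benjamini-Hochberg over 16145 genes with a threshold of 0.05. DESeq2 1.42.0 was an alternative. The procedure was checked on simulated data. The simulated libraries were drawn independently, so that check does not cover shared deviations of same-numbered libraries. Replicate pairs all differed by more than sampling noise (chi-square per gene of at least 7.92). Counting error is small beside replicate spread at these totals, and counts of amplified reads are not independent molecules.

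The 4 genes and all lists were chosen with earlier results of these data known. Named genes were the 4, their targets, set partners, list genes that passed, the 3 leading genes lower in that knockdown alone, nearest tested neighbours, and the 3 genes most alike in pattern. Of these, 1 partner and 1 gene alike in pattern are not reported here. Same-numbered libraries of shRNA and nontargeting groups deviated together (every correlation over 0.1) in 14 of 18 comparisons of knockdown and sex, but not for Ash1l and Med13l in males or Kdm6b in either sex. The pairing is thus read from the data, since the labels give only replicate numbers. Marker lists of neurons, astrocytes, oligodendrocyte lineage, microglia, vascular cells and progenitors were summed in CPM over the genes that passed the filter on low counts. Oligodendrocyte-lineage markers summed to between 26.7 and 51.1 CPM, vascular to between 2.33 and 14.0 CPM and progenitor to between 17.3 and 58.3 CPM. Promoter sequences came from RefSeq (GRCm38.p6), where all 4 genes matched.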

Additional observations from a re-analysis of the deposited data

How the results depend on the processing

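The falls of Dffa, Ctbp1, Gdf11 and Epdr1 in the knockdowns that chose them were fixed by that choice, so no stability is read from them. With each library left out their values ran from -1.10 to -1.03, -1.01 to -0.83, -0.72 to -0.60 and -0.88 to -0.75 in log2. The number of other knockdowns that passed ranged with each library left out from 3 to 4 for Dffa, 0 to 0 for Ctbp1, 2 to 3 for Gdf11 and 3 to 5 for Epdr1. With the replicate number as a block it was 5 for Dffa, 1 for Ctbp1, 3 for Gdf11 and 5 for Epdr1. With no virus libraries as control it was 5 for Dffa and 3 for Epdr1. By DESeq2 it was 4 for Dffa and 5 for Epdr1, and with no filter on low counts 3 for Epdr1. With only the libraries compared it was 1 for Dffa, 1 for Gdf11 and 2 for Epdr1. That last fit has fewer samples. The number of lower genes ranged with each library left out from 416 to 677 after Ash1l, 48 to 101 after Kmt2c, 42 to 133 after Mbd5 and 92 to 240 after Tbr1 shRNA, lowest without Kmt2c female replicate 1, Mbd5 female replicate 1 and Tbr1 male replicate 2. With the replicate block these numbers were 1393, 326, 382 and 719. After Mbd5 shRNA the number was 137 by DESeq2, 57 with no filter on low counts and 51 with only the libraries compared, and after Tbr1 shRNA it was 99 with only the libraries compared. The cause of these shifts was not tested otherwise. The 13 values of the 4 genes that passed include the 4 falls that chose them, from which nothing is read here. None of the 13 changed sign. Of the values that did not pass 5 changed sign, all close to 0: Ctbp1 after Chd8 (-0.09 to 0.0016), Kdm6b (-0.10 to 0.03), Mbd5 (-0.03 to 0.09) and Tbr1 shRNA (-0.00023 to 0.10) and Gdf11 after Tbr1 shRNA (-0.06 to 0.02). The block changed no other call of the 4 genes than those given beside their values. Halving the counts added Dffa after Tbr1 shRNA (edgeR adjusted p = 0.0490) and Epdr1 after Ash1l shRNA (edgeR adjusted p = 0.0386). Leaving out the 2 male libraries that go against their labels added the latter (edgeR adjusted p = 0.0412).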
